A study of Homo sapiens with 8 samples.

Results

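Transcripts of 68 genes for potassium, calcium, sodium and transient receptor potential (TRP) channels were followed in SKBR3, an ERBB2-amplified human breast cancer cell line, with and without knockdown of the pioneer transcription factor FOXA1. The genes were chosen by symbol (KCN, CACNA, CACNB, CACNG, SCN, TRPC, TRPM and TRPV genes) and by level, as rows of the count table with a mean of at least 10 read counts in the 4 control or in the 4 knockdown libraries. Of 30434 rows, 131 had such a symbol and 63 of these stayed under 10 counts in both groups. The control group was SKBR3 of genotype WT. The other group was a stable SKBR3 line transduced with lentivirus carrying 3 individual short hairpin RNAs against FOXA1, and the labels do not say whether a cell received 1 or several of them. Both were grown in DMEM with GlutaMAX and 10% serum, and whether the controls carried a control vector is not given in the sources used here. Nothing in the labels says that the 4 libraries of a group came from separate cultures. The p-values thus set group differences against the spread between these libraries, which may be technical.

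Ion channels are membrane pores that let ions pass down their electrochemical gradients. Potassium channels set the resting membrane potential, voltage-gated calcium and sodium channels carry inward currents, and TRP channels are mostly cation channels opened by ligands, lipids, temperature or internal calcium. Pore-forming alpha subunits are joined by auxiliary subunits that change gating and surface expression. Epithelial cells do not fire action potentials in the way neurons do, and their channels are known for potassium and calcium transport, volume control and calcium signalling.

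Library totals lay between 19087878 and 23786684 counts, so that 3 counts stood for 0.123 to 0.153 CPM (counts scaled to a library size of 1000000, with TMM factors). Across tested genes, which are not independent replicates, Spearman's rho between libraries was 0.995 to 0.996 within groups and 0.876 to 0.878 across them. FOXA1 had 4071 to 4397 counts in the control and 83 to 92 in the knockdown libraries, in the direction of their labels. The 6 luminal epithelial markers examined (KRT7, KRT8, KRT18, KRT19, EPCAM and ERBB2) were all detected, with a summed level of 18290 to 20372 CPM in control and 11485 to 12376 CPM in knockdown. Counts of ERBB2 (154178 to 163252 in control, 24948 to 33180 in knockdown), KRT7 and KRT19 were lower in every knockdown library than in any control library, and those of KRT8 (94289 to 103034, then 118768 to 129532), KRT18 and EPCAM were higher. The 5 muscle markers summed to 1.04 to 1.51 CPM in control and 49.1 to 53.3 CPM in knockdown, most of it TNNT2, with 21 to 33 and 1021 to 1248 counts. At much lower counts, DES (0 to 1 in control, 8 to 13 in knockdown), ACTN2 (0 to 1, then 3 to 8) and MYH6 (0 to 2, then 4 to 13) were also higher in knockdown without overlap, and MYH7 had 0 to 2 and then 0. The neuronal markers summed to 6.69 to 7.93 and 3.01 to 5.24 CPM, with SNAP25 at 0 to 3 counts. The fibroblast markers summed to 5.27 to 6.98 and 10.8 to 11.9 CPM, with COL3A1 at 0 to 1 and then 90 to 104 counts, PDGFRB at 7 to 12 and then 43 to 81, COL1A1 at 103 to 134 and then 79 to 107, and DCN at 0 or 1 count. The blood markers summed to less than 1 CPM. In bulk RNA, fewer expressing cells cannot be told apart from less RNA per cell.

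Channel transcripts moved in both directions. Tests are given for the 59 genes that average 10 counts or more over all 8 libraries, a level that does not use the group labels. The other 9 genes averaged under 10 counts over all 8 libraries. They reached 10 only in a group mean, so their values are given without a test. Some of the 59 also had under 10 counts in the mean of 1 group, such as TRPC1 (0.25 in control) and KCNH7 (1 in knockdown), and reached the level through the other group. Of the 59, 8 had 3 or fewer counts in every control library and 2 in every knockdown library. Such genes had to differ between the groups, and they count in the shares below. In edgeR's quasi-likelihood test, adjusted over all genes, 47 of the 59 passed an adjusted p of 0.05 (79.7%), against 77.2% of the 16121 tested genes at that level. Of these, 28 were higher in knockdown (47.5%, against 39.3% of all) and 19 lower (32.2%, against 37.9%). A called change of at least 2-fold was found upward for 23 (39.0%, against 14.3%) and downward for 12 (20.3%, against 13.2%). Control and knockdown CPM were fully separate for 45 of the 59 (76.3%, against 72.0%). Because a group mean entered the choice of the genes, these shares are descriptions.

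The median log2 fold change of the 59 was 0.30, against 0.02 for all tested genes at that level, and the median size of a change was 1.40 against 0.50. The channel genes were counted less deeply, with a median of 70.1 counts per library against 397.2 for all genes at that level. The part of depth in the size of the changes was not tested. Of the 68, 22 share exon sequence with another counted gene.

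**Figure D1:**
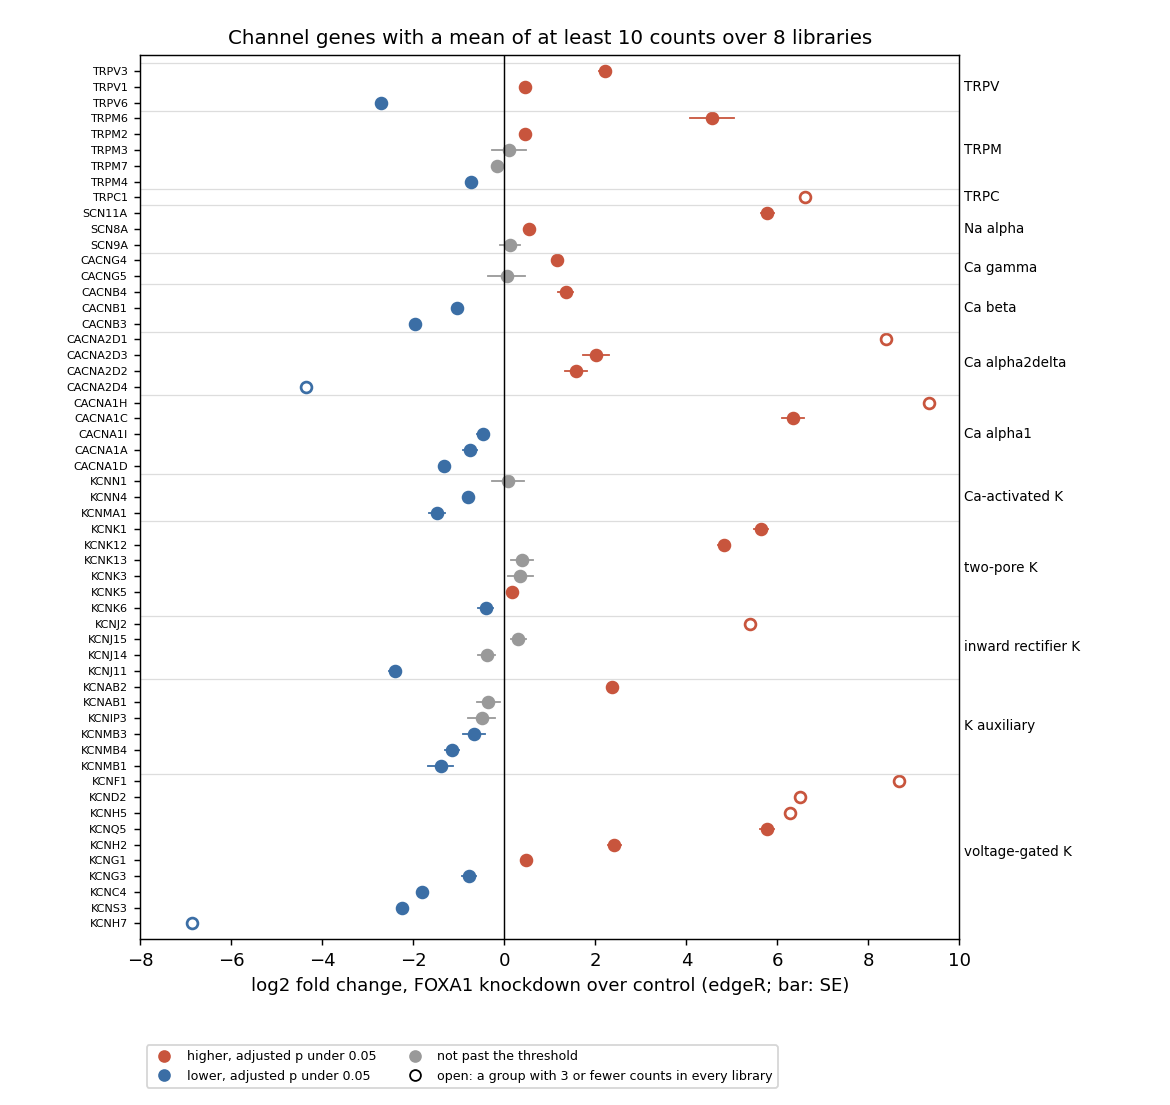
Fitted log2 fold change (x axis, knockdown over control) of 55 of the 59 tested channel genes, grouped by class, with bars for the SE; open circles are genes with 3 or fewer counts in every library of a group, whose fitted value depends on the prior count and which have no bar. Most classes hold genes on both sides of 0, from TRPV6 at -2.71 to CACNA1C at 6.34 among genes with a bar.

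Divided by ion, 13 of 32 tested potassium channel genes were higher and 11 lower, and 7 of 14 calcium channel genes higher and 6 lower. Of the sodium channel genes 3 of 4 were higher and none lower, and of the TRP genes 5 of 9 were higher and 2 lower. Among all 16121 tested genes averaging 10 counts or more, 39.3% were higher and 37.9% lower. These shares stand beside the counts of each family and class, here and below, and several of these sets are small. Summed over all 68 genes, the level per exon length went from 114.7 ± 3.01 to 126.8 ± 2.59 CPM per kilobase (kb) of exon (SD, n = 4 each). The potassium channel sum went from 61.0 ± 2.05 to 70.9 ± 1.13 and the calcium channel sum from 19.3 ± 0.581 to 25.0 ± 1.47 CPM per kb. Single genes weigh heavily in such sums. In the calcium sum, CACNG4 alone went from 5.93 to 13.2 CPM per kb, while CACNB3 went from 7.03 to 1.79. The sodium channel sum went from 0.337 ± 0.0334 to 4.01 ± 0.151, and the TRP sum from 34.1 ± 0.614 to 26.9 ± 0.589 CPM per kb.

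**Figure D2:**
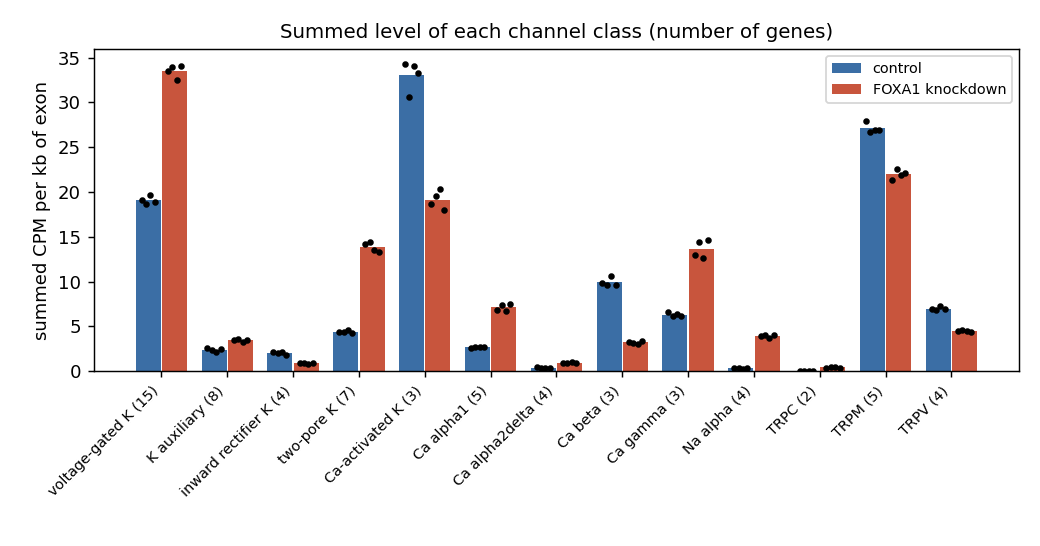
Summed level (CPM per kb of exon) of 13 channel classes in control and knockdown; bars are means, dots the 4 libraries of a group, and the number of genes in a class is in brackets. The voltage-gated potassium sum went from 19.1 to 33.5 and the calcium-activated potassium sum from 33.1 to 19.2.

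Ranked by level per kb of exon, the first 10 genes of each group had 7 in common. In control, KCNN4 came first at 32.8 ± 1.68 CPM per kb, then TRPM4 at 15.6 ± 0.798. TRPM7 (7.73 ± 0.874) and KCNG1 (7.38 ± 0.280) followed and differed by less than the SD of TRPM7. After them came CACNB3 (7.03 ± 0.277), CACNG4 (5.93 ± 0.285) and TRPV6 (4.86 ± 0.208), then TRPM2 (3.74 ± 0.292), KCNK5 (3.54 ± 0.0805) and KCNC4 (3.52 ± 0.0751), of which the last pair lay within 1 SD of each other. In knockdown KCNN4 was again first at 19.0 ± 1.01 CPM per kb, followed by CACNG4 (13.2 ± 1.00), and KCNG1 (10.3 ± 0.292) and TRPM4 (9.33 ± 0.281) ranked 4 and 5. KCNK1 (7.22 ± 0.210) and TRPM7 (6.89 ± 0.448) then lay within 1 SD, ahead of TRPM2 (5.09 ± 0.294), CACNA1H (4.67 ± 0.288) and KCNK5 (3.95 ± 0.194). CACNA1H had ranked 58 of 68 in control and KCNK1 37. With the longest annotated transcript in place of all exons, 9 of the first 10 were the same in each group.

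**Figure D3:**
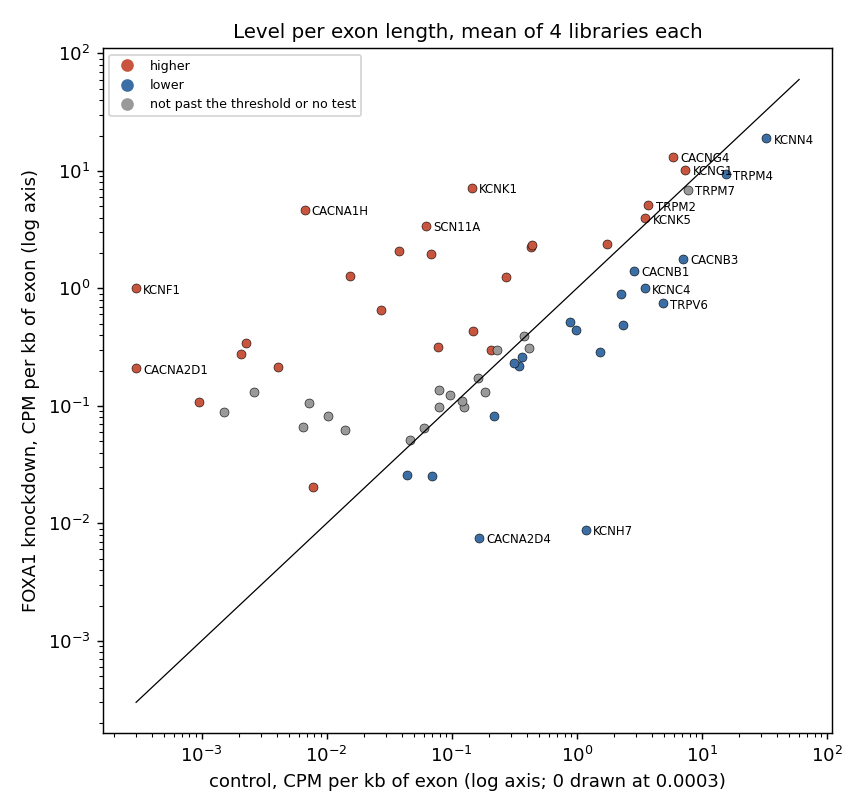
Mean level of 63 of the 68 genes in control (x axis) and knockdown (y axis), in CPM per kb of exon on log axes, with the line of equality and colours for the call. The well expressed genes KCNN4 (32.8 to 19.0) and TRPM4 (15.6 to 9.33) lie below the line, and TRPM7, which did not pass the threshold, close to it. CACNA1H, KCNK1 and SCN11A lie far above it.

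Promoter sequences of the channel genes were read from RefSeq windows on GRCh38.p14 of 300 bases (250 before to 50 after a start site). The table matched 49 of the 68 genes, with 82 windows. The core FOXA motif TGTTTAC, read on both strands, was present in 2 of the 82 (2.44%) and in 3.42% of all 35116 promoter windows. These were 1 of 2 windows of SCN11A, a sodium channel gene that rose, and 1 of 3 windows of KCNMB3, an auxiliary subunit gene that was called lower. The SCN11A window lies upstream of the span that GENCODE 29 gives the gene, and the KCNMB3 window lies inside the span of its gene. Both are shown, as the FOXA matches among the channel genes, with TGTTTAC or its reverse complement in capitals.
SCN11A, chr3:39051895-39052194, minus strand: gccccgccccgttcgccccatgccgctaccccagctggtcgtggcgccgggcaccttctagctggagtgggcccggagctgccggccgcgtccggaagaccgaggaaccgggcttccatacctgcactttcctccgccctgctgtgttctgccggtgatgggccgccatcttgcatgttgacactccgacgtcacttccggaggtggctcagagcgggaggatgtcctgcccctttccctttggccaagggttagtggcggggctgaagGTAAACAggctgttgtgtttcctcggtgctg
KCNMB3, chr3:179251065-179251364, minus strand: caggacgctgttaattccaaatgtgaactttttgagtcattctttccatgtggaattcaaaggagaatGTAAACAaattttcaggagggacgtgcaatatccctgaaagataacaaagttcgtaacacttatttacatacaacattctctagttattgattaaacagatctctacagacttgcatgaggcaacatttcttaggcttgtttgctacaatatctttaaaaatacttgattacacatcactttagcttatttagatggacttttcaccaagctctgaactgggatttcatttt

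The GC box GGGCGG, on both strands, was found in 48 of the 82 windows (58.5%, against 45% of all) and the AP-2 motif GCCNNNGGC in 25 (30.5%, against 23.2%). A match of the AP-2 motif may overlap a GC box. TATAAA, on both strands, was found in 5 windows (6.10%, against 11.5%). A GC box was in 23 of 40 windows of genes that were higher and in 15 of 21 of genes that were lower. A match describes the letters of the window and is neither a bound site nor a cause. The windows of the rising CACNA1C and KCNK1 and of the falling KCNC4 and TRPV6 are shown with GC boxes in capitals, as examples of large changes in both directions. CACNA1C holds 6 matches, KCNK1 7 and KCNC4 4, which can overlap, and TRPV6 holds none of these letters in its window. The CACNA1C window lies within the span that GENCODE 29 gives the gene, and the KCNC4 window lies upstream of the span of its gene.
CACNA1C, chr12:2052737-2053036, plus strand: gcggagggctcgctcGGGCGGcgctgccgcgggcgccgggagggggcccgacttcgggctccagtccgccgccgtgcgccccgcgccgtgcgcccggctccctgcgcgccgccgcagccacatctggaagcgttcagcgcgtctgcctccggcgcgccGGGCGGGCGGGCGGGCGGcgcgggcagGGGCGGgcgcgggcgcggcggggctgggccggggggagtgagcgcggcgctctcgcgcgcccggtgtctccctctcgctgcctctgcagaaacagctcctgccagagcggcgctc
KCNK1, chr1:233613856-233614155, plus strand: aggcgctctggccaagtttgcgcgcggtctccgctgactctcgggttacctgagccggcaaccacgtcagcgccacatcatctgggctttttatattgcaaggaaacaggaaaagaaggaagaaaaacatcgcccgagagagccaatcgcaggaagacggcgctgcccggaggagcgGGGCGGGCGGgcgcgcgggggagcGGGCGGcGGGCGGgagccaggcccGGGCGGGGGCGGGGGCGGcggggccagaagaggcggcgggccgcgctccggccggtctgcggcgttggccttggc
KCNC4, chr1:110210064-110210363, plus strand: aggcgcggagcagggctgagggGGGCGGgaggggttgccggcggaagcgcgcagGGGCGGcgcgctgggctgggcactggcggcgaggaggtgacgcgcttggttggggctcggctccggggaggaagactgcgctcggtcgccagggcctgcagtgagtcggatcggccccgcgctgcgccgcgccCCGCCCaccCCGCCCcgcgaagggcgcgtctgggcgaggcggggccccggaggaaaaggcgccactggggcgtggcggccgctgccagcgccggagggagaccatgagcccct
TRPV6, chr7:142885696-142885995, minus strand: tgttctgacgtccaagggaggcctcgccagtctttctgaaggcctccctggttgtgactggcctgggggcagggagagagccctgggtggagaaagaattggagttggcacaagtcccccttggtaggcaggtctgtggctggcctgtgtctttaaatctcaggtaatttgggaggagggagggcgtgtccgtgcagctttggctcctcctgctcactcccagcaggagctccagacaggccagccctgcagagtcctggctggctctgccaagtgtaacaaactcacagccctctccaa

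Among voltage-gated potassium channels, 13 genes were tested, of which 8 were higher and 4 lower. The largest fall of any channel gene was in KCNH7 (Kv11.3, an ERG-type channel; chromosome 2, 162371407 to 162838730, minus strand, GENCODE 29 on GRCh38). Counts were 124, 131, 122 and 145 in the control libraries, here and below in the order of their labels, and 1, 2, 1 and 0 in the knockdown libraries. The groups were far apart, with 522 counts in all against 4, a 132-fold lower scaled ratio (exact binomial 95% interval 51.3 to 486.5, for counting error only; edgeR adjusted p = 7.71e-18). Its relative KCNH2, the hERG channel of cardiac repolarization, moved the other way, from 42, 67, 56 and 64 to 334, 337, 251 and 319 counts (log2 fold change 2.42, SE 0.149, adjusted p = 1.46e-16). A further relative, KCNH5, had 0, 0, 1 and 0 counts in control and 35, 25, 28 and 29 in knockdown, a 116-fold scaled ratio with a counting interval of 20.3 to 4605 (adjusted p = 4.88e-11). Within the KCNH family the called genes thus went in both directions, and KCNH7 shares 189 bases of exon on the opposite strand with GCA, a gene with a mean of 369.8 counts.

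KCNC4, a Kv3 channel gene known for fast repolarization, had 1928, 1931, 1812 and 2102 counts in control and 576, 674, 469 and 524 in knockdown, a fall from 88.1 ± 1.88 to 25.1 ± 1.72 CPM (mean ± SD, n = 4 per group; log2 change -1.81, SE 0.0504, adjusted p = 3.26e-21). Per kb of exon its level went from 3.52 to 1.00 CPM per kb, and the groups were far apart.

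KCNQ5, a Kv7 gene whose channel carries a slowly activating current, went from 5, 6, 8 and 6 counts to 358, 407, 326 and 311 (log2 fold change 5.76, SE 0.155, adjusted p = 1.02e-21). The A-type channel gene KCND2 had 1, 0, 0 and 0 counts in control and 34, 42, 38 and 22 in knockdown, a 134-fold scaled ratio with a counting interval of 23.7 to 5347 (adjusted p = 3.72e-11). For both genes every knockdown library lay above every control library.

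Silent subunits, which form no channel alone and modify Kv2 channels, were divided. KCNF1 had 0 counts in all control libraries and 59, 51, 44 and 51 in knockdown, at least 16.1-fold higher against a floor of 3 counts per library (adjusted p = 6.69e-13). KCNG1 rose from 40.1 ± 1.52 to 55.8 ± 1.59 CPM (log2 fold change 0.48, SE 0.0338, adjusted p = 6.13e-10). KCNS3 fell from 158, 149, 184 and 148 counts to 35, 36, 33 and 32 (log2 fold change -2.25, SE 0.109, adjusted p = 6.84e-14), and KCNG3 fell as well (log2 fold change -0.78, SE 0.162, adjusted p = 9.43e-05). Whether counting used strand, which bears on overlapping genes, is not given.

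**Figure D4:**
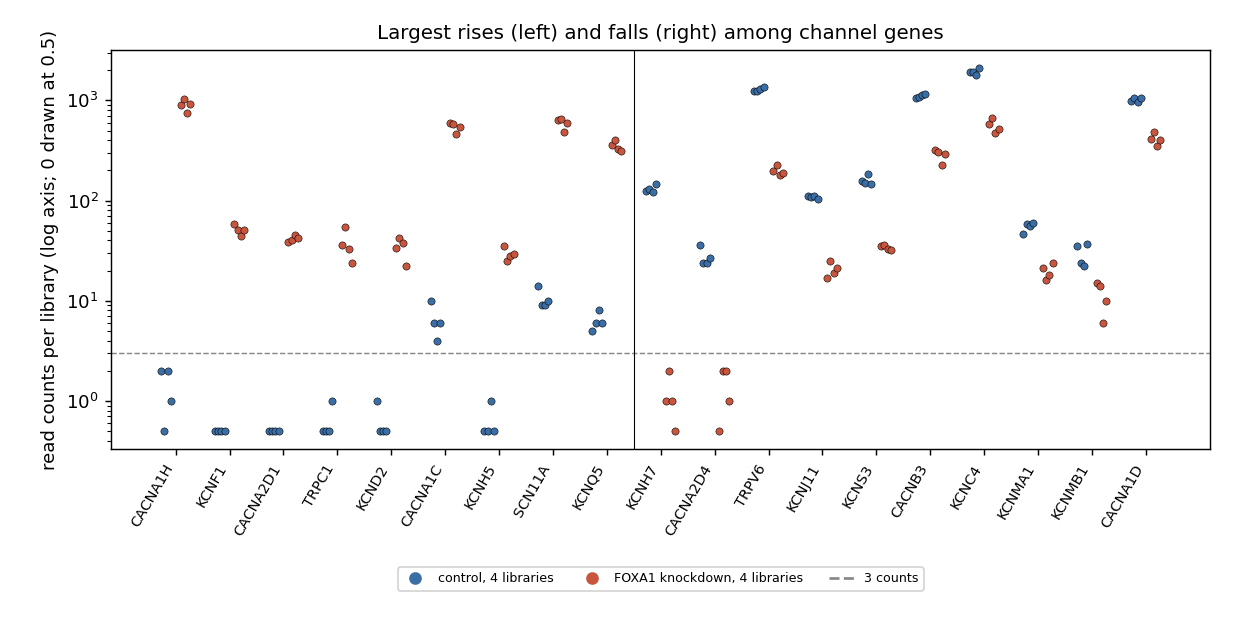
Read counts (y axis, log; 0 drawn at 0.5) in each of the 8 libraries for 9 of the 10 largest rises and the 10 largest falls by fitted log2 fold change, with a dashed line at 3 counts. For CACNA1H, KCNF1, CACNA2D1, TRPC1, KCND2 and KCNH5 every control library lies under the line; KCNH7 and CACNA2D4 lie under it in every knockdown library.

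Of 3 calcium-activated channel genes 2 were lower, and so were all 3 measured genes for beta subunits of the large-conductance channel. KCNN4 (KCa3.1, the intermediate-conductance channel of epithelia and lymphocytes; chromosome 19, 43766533 to 43781261, minus strand) was the best counted potassium channel gene, with 2538, 2283, 2426 and 2612 counts in control and 1488, 1614, 1347 and 1311 in knockdown. This was a fall from 111.9 ± 5.72 to 64.7 ± 3.45 CPM (mean ± SD, n = 4 per group; log2 change -0.79, SE 0.0539, adjusted p = 2.54e-14), with no overlap. KCNMA1, the pore of the large-conductance BK channel, fell from 46, 58, 56 and 60 counts to 21, 16, 18 and 24 (log2 fold change -1.49, SE 0.174, adjusted p = 1.39e-07). The BK beta subunit genes fell too: KCNMB1 from 35, 24, 22 and 37 counts to 15, 14, 6 and 10 (log2 fold change -1.40, SE 0.275, adjusted p = 3.51e-05), and KCNMB4 from 117, 106, 86 and 118 to 50, 60, 32 and 53 (log2 fold change -1.15, SE 0.161, adjusted p = 6.15e-08). KCNMB3 was called lower (log2 fold change -0.67, SE 0.241, adjusted p = 0.00208), though its groups overlapped, and it shares 3403 bases of exon on the opposite strand with PIK3CA, which had a mean of 912 counts. The small-conductance gene KCNN1 had 7 to 19 counts in control and 12 to 19 in knockdown and did not pass the threshold (log2 fold change 0.08, adjusted p = 0.812).

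Among the other tested auxiliary genes of potassium channels, 1 rose and 2 did not pass. KCNAB2, a beta subunit of Kv1 channels, rose from 78, 97, 92 and 97 counts to 513, 499, 416 and 483 (log2 fold change 2.37, SE 0.0751, adjusted p = 3.74e-19). It shares 111 bases of exon with NPHP4 on the opposite strand, which had a mean of 430.1 counts. KCNAB1, with 14 to 26 counts in control and 11 to 19 in knockdown (log2 fold change -0.36, adjusted p = 0.229), and the calcium sensor gene KCNIP3 did not pass. KCNIP3 had 32, 32, 43 and 21 counts in control and 17, 31, 22 and 22 in knockdown (log2 fold change -0.50, SE 0.293, adjusted p = 0.0658), and it passed when control replicate 4 (adjusted p = 0.0114) or knockdown replicate 2 (0.0433) was left out; over all alternatives the adjusted p was 0.0114 to 0.277.

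The 2-pore (K2P) leak channels, which hold the resting potential, included large rises. KCNK1 (TWIK1; chromosome 1, 233614004 to 233672512, plus strand) had 11, 12, 14 and 9 counts in control and 632, 655, 506 and 548 in knockdown, from 0.525 ± 0.114 to 26.2 ± 0.761 CPM (log2 fold change 5.64, SE 0.157, adjusted p = 5.83e-24). KCNK12 (THIK2) had 8 to 11 counts in control and 247 to 336 in knockdown (log2 fold change 4.84, SE 0.132, adjusted p = 9.29e-21). KCNK5 (TASK2), a pH- and volume-sensitive channel and the best counted of the class, went only from 286, 288, 289 and 310 counts to 344, 388, 288 and 307. Its log2 fold change was 0.16 (SE 0.0383, adjusted p = 0.0313), with overlapping counts but separate CPM. The call was lost with DESeq2 (adjusted p = 0.132), with no filter (0.0565) and when control replicate 1, 2 or 4 or knockdown replicate 2 was left out (0.0640 to 0.111), and the adjusted p ranged from 0.00197 to 0.132 over all alternatives. KCNK6 was called lower at -0.41 (SE 0.171, adjusted p = 0.0469), with overlapping groups, and lost the call in 10 of 14 alternatives, among them DESeq2 (adjusted p = 0.178), upper-quartile scaling (0.0867) and leaving out control replicate 1, 2 or 3 or knockdown replicate 3 or 4 (0.0551 to 0.155). Its adjusted p ranged from 0.0286 to 0.178. KCNK3, with 10 to 24 counts over the 8 libraries, and KCNK13, with 11 to 23, did not pass (adjusted p = 0.262 and 0.204).

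Inward rectifiers, which pass potassium more easily into the cell, were divided between a fall and a rise. KCNJ11 (Kir6.2, the pore of ATP-sensitive channels) fell from 112, 109, 110 and 103 counts to 17, 25, 19 and 21, or from 4.93 ± 0.350 to 0.921 ± 0.135 CPM (log2 fold change -2.42, SE 0.124, adjusted p = 2.61e-13). KCNJ2 (Kir2.1) had 0, 0, 1 and 1 counts in control and 34, 29, 19 and 25 in knockdown, a 52.9-fold scaled ratio with a counting interval of 14.3 to 442 (adjusted p = 1.90e-10). KCNJ14 and KCNJ15 did not pass. For KCNJ14, with 33 to 43 counts in control and 20 to 41 in knockdown (log2 fold change -0.39, SE 0.188, adjusted p = 0.0738), leaving out control replicate 4 or knockdown replicate 1 gave an adjusted p of 0.0345 or 0.0261, in a range of 0.0261 to 0.235 over all alternatives. KCNJ15 had 13 to 21 counts in control and 20 to 26 in knockdown (adjusted p = 0.236).

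All 5 tested genes for pores of voltage-gated calcium channels passed, 2 higher and 3 lower. Of all tested genes averaging 10 counts or more, 77.2% passed. CACNA1D (Cav1.3, an L-type channel; chromosome 3, 53328963 to 53813733, plus strand) fell from 993, 1066, 968 and 1065 counts to 416, 487, 349 and 401, or from 46.4 ± 1.33 to 18.5 ± 1.05 CPM (mean ± SD, n = 4 per group; log2 change -1.33, SE 0.0450, adjusted p = 1.03e-17). CACNA1H (Cav3.2, a T-type channel; chromosome 16, 1153121 to 1221772, plus strand) had 2, 0, 2 and 1 counts in control and 898, 1034, 745 and 915 in knockdown. That is 5 counts in all against 3592, a 710-fold scaled ratio with a counting interval of 304 to 2188 (adjusted p = 3.25e-25). CACNA1C (Cav1.2, the L-type channel of heart and smooth muscle) rose from 10, 6, 4 and 6 counts to 592, 577, 460 and 542 (log2 fold change 6.34, SE 0.245, adjusted p = 1.45e-23). In control CACNA1D alone of the 5 had over 100 counts in a library, and in knockdown CACNA1H, CACNA1C and CACNA1D each had at least 349 counts in every library. Of the muscle markers given above, TNNT2 was higher in the same libraries as CACNA1C, and so were DES, ACTN2 and MYH6, at no more than 13 counts. MYH7 was not, with 0 to 2 counts in control and 0 in knockdown. Any link of these markers to CACNA1C was not tested. The P/Q-type CACNA1A and T-type CACNA1I fell by less (log2 fold changes -0.76 and -0.47, SE 0.153 and 0.125, adjusted p = 0.000826 and 0.00288).

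Auxiliary subunits of these channels also moved in both directions. The beta subunit genes CACNB3 and CACNB1, whose products carry pores to the membrane, fell: CACNB3 from 1068, 1091, 1121 and 1149 counts to 319, 308, 229 and 289 (log2 fold change -1.97, SE 0.0566, adjusted p = 1.14e-20), and CACNB1 from 20.4 ± 1.65 to 9.96 ± 0.391 CPM (log2 fold change -1.03, SE 0.0643, adjusted p = 1.14e-12). CACNB4, with 5 to 8 counts in control and 15 to 17 in knockdown, was higher (log2 fold change 1.35, SE 0.159, adjusted p = 0.000302), but it shares 2168 bases of exon on the same strand with AC068547.1, which had a mean of 136 counts.

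All 4 alpha2delta genes passed the test, 3 upward, where 77.2% of all tested genes averaging 10 counts or more passed. CACNA2D1, which encodes a gabapentin-binding subunit, had 0 counts in every control library and 39, 40, 45 and 42 in knockdown, at least 13.2-fold higher against a floor of 3 counts per library (adjusted p = 6.94e-12). CACNA2D2, the best counted, rose from 25, 12, 20 and 25 counts to 62, 77, 49 and 60 (log2 fold change 1.57, SE 0.248, adjusted p = 8.85e-08), and CACNA2D3 from 9, 9, 4 and 10 to 41, 32, 31 and 28 (log2 fold change 2.01, SE 0.280, adjusted p = 1.96e-07). CACNA2D4 went the other way, from 36, 24, 24 and 27 counts to 0, 2, 2 and 1, a 22.5-fold lower scaled ratio with a counting interval of 9.34 to 70.5 (adjusted p = 8.34e-10). CACNG4, a gamma subunit gene also known as a regulator of AMPA receptors, rose from 448, 434, 444 and 438 counts to 992, 1155, 809 and 1031 (log2 fold change 1.16, SE 0.0651, adjusted p = 1.81e-15), while CACNG5 stayed at 4 to 16 counts in every library (adjusted p = 0.898).

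Of the 4 tested sodium channel genes 3 rose and none fell, and none had over 81 counts in a control library. With 4 genes, this count cannot be told apart from the 39.3% higher and 37.9% lower of all genes at that level. SCN11A (Nav1.9, known from pain-sensing neurons; chromosome 3, 38845769 to 38950561, minus strand) had 14, 9, 9 and 10 counts in control and 634, 651, 488 and 589 in knockdown, from 0.477 ± 0.110 to 26.4 ± 1.08 CPM (log2 fold change 5.78, SE 0.148, adjusted p = 5.96e-24). SCN8A rose from 68.0 to 100.5 counts on average (log2 fold change 0.55, SE 0.123, adjusted p = 0.000417). SCN9A, with 12 to 23 counts in control and 17 to 25 in knockdown, did not pass (log2 fold change 0.13, adjusted p = 0.639).

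Among TRP channels, TRPV6 showed the largest fall. This calcium-selective channel of calcium-absorbing epithelia (chromosome 7, 142871203 to 142885762, minus strand) had 1235, 1230, 1293 and 1352 counts in control and 197, 226, 180 and 188 in knockdown. It fell from 58.0 ± 2.48 to 8.87 ± 0.414 CPM (mean ± SD, n = 4 per group; log2 change -2.71, SE 0.0455, adjusted p = 1.90e-23), 6.54-fold lower, with the groups far apart. TRPV3, a warmth-sensitive channel of keratinocytes, rose from 48, 70, 60 and 58 counts to 290, 308, 252 and 251 (log2 fold change 2.20, SE 0.119, adjusted p = 4.73e-16), and TRPV1, the capsaicin receptor, from 9.57 ± 0.404 to 13.1 ± 0.265 CPM (log2 fold change 0.45, SE 0.0331, adjusted p = 2.62e-06).

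In the TRPM family, TRPM4, a calcium-activated channel for monovalent cations, fell from 2292, 2118, 2285 and 2354 counts to 1414, 1542, 1177 and 1368 (log2 fold change -0.74, SE 0.0431, adjusted p = 3.87e-14). TRPM2, opened by ADP-ribose, rose from 25.1 ± 1.96 to 34.1 ± 1.97 CPM (log2 fold change 0.44, SE 0.0708, adjusted p = 2.25e-07). The magnesium channel kinases differed from each other. TRPM6 went from 9, 8, 2 and 3 counts to 138, 163, 97 and 141 (log2 fold change 4.56, SE 0.483, adjusted p = 9.26e-15), whereas TRPM7 had 2200, 2256, 1677 and 2333 counts in control and 1977, 2213, 1741 and 1689 in knockdown. The TRPM7 groups overlapped through control replicate 3, and the change did not pass (log2 fold change -0.17, SE 0.0989, adjusted p = 0.109). Without that library it was -0.25 with an adjusted p of 5.88e-06; on all libraries the adjusted p was 0.0400 with DESeq2 and 0.000851 with no filter, and it ranged from 5.88e-06 to 0.436 over all alternatives. TRPC1 had 0, 0, 0 and 1 counts in control and 36, 54, 33 and 24 in knockdown, a 145-fold scaled ratio with a counting interval of 25.7 to 5776 (adjusted p = 2.43e-11). TRPM3, with 10 to 29 counts in control and 16 to 27 in knockdown, overlapped between the groups (adjusted p = 0.763).

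An exact, 2-sided permutation test over the 70 divisions of 8 libraries into 4 and 4 gave its smallest possible p, 0.0286, for 45 of the 47 called genes. The exceptions were KCNMB3 and KCNK6, whose groups overlapped. A gene with fully separate groups always gets this p, so the test adds nothing to the separation given above. Of all tested genes averaging 10 counts or more, 72.0% had separate groups.

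Neighbouring channel genes did not always move together. On chromosome 12, CACNA2D4 (1791957 to 1918836, minus strand) and CACNA1C (1970786 to 2697950, plus strand) lie 51.9 kb apart, and the first fell while the second rose, as given above. CACNA1D and CACNA2D3 on chromosome 3, 308.8 kb apart, also went in opposite directions, at -1.33 and 2.01 on the log2 scale. TRPV3 and TRPV1, 7.4 kb apart on chromosome 17, both rose, at 2.20 and 0.45. CACNG4 rose and CACNG5, 79.4 kb away, did not pass. Around each of the 68 genes, the 50 nearest tested protein-coding genes had a median log2 change between -0.32 and 0.74, and the highest was around KCNMB1 (0.74), which itself fell.

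**Figure D5:**
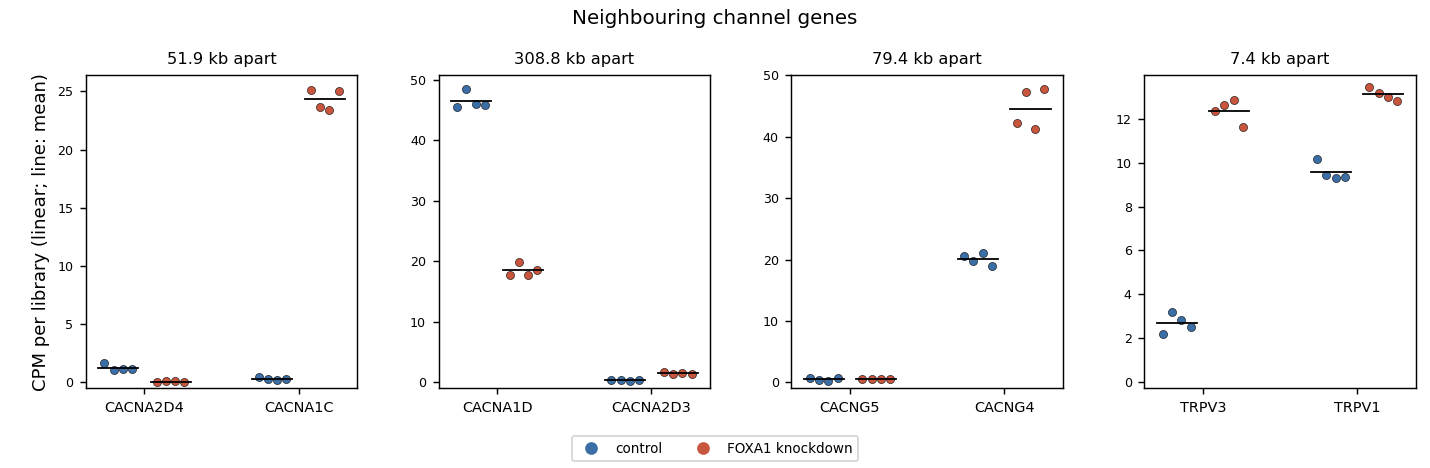
CPM in each library (y axis, linear, a scale for each panel) for 4 neighbouring gene pairs, with lines at group means. CACNA2D4 falls to near 0 where CACNA1C rises from 0.295 to 24.3 CPM, and TRPV3 and TRPV1 are both higher in knockdown.

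The members that averaged under 10 counts over all 8 libraries had few counts throughout. KCND3 (A-type channel) had 0 to 1 counts in control and 12 to 23 in knockdown, KCNH3 0 to 1 and 10 to 17, KCNAB3 0 to 2 and 8 to 14, and CACNG8 2 to 4 and 10 to 14. The leak channel gene KCNK9 (TASK3) had 0 to 2 and 7 to 15, TRPC6 0 to 2 and 7 to 12, and KCNIP2 1 to 9 and 6 to 14. TRPV4, an osmotically sensitive channel, had 7 to 14 counts in control and 6 to 11 in knockdown. At the level threshold, TRPV4 (mean 10 in control) and KCNK9 and TRPC6 (mean 10 in knockdown) lay just inside. Just outside were KCNA7 (7.25 in control, 9.75 in knockdown), KCNE4 (9.25 and 3) and CACNB2 (5 and 8.5).

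Other channel and ion transport genes, from a list of 60, had 55 rows, of which 41 were tested: 18 were higher, 19 lower and 4 not past the threshold. Their median log2 fold change was -0.20, against 0.02 over all tested genes, of which 77.1% were called. Among tested genes averaging 10 counts or more, 39.3% were higher and 37.9% lower. The irritant receptor TRPA1 went from 1 count in all to 267, and the calcium release channel RYR1 from 4 to 348, scaled ratios of 264 (counting interval 46.9 to 10459) and 86.0 (33.3 to 317). HCN4 went from 1 count to 100, a ratio of 98.8 (17.3 to 3942).

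The 4 largest falls of that list included pumps and subunits of epithelial channels. ATP2A3, the SERCA3 calcium pump, fell from 309.0 ± 17.6 to 7.13 ± 0.550 CPM (mean ± SD, n = 4 per group; log2 change -5.43), and LRRC26, a gamma subunit of the BK channel, from 76.0 ± 12.6 to 3.99 ± 0.568 CPM (-4.26). SCNN1A, the alpha subunit of the epithelial sodium channel, fell from 178.4 ± 5.71 to 16.6 ± 1.13 CPM (-3.42), and the calcium pump gene ATP2C2 from 41.2 ± 3.10 to 4.93 ± 0.301 CPM (-3.06). LRRC26 was thus lower beside KCNMA1, KCNMB1 and KCNMB4, genes of the BK channel given above. KCNMB3 was called lower too, but with overlapping groups and with exon sequence shared with PIK3CA.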

How the data were processed

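RNA was sequenced from 8 SKBR3 libraries, 4 control and 4 FOXA1 knockdown, as paired-end reads, per the labels. The authors deposited read counts per gene under Ensembl identifiers with a symbol column. The submitters' processing notes name FastQC, Salmon 1.9, DESeq2 and the build hg38 without their roles; if Salmon made the counts, they are estimates. The use of strand and the annotation release are not given in the sources used here.

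Counts were analysed in R 4.3.3 with edgeR 4.0.16: filterByExpr (minimum 10 counts, total 15), TMM scaling, the robust quasi-likelihood test and Benjamini-Hochberg adjustment over 16430 genes, with a threshold of 0.05. The prior count for fitted changes was 0.125, and SEs come from log2 CPM with 0.5 added to each count. Lengths and positions are from GENCODE 29 for the same Ensembl identifier. Ratios of summed counts carry exact binomial 95% intervals (Clopper-Pearson), for counting error only. Fits were tested on simulated data with known changes. Alternatives were 3 other scalings, 2 other filters, DESeq2 1.42.0, a replicate block and leaving out each library.

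Named genes are the 10 largest rises and 10 largest falls among called genes without overlap, and the best counted gene of each class. Also named are the 5 best counted genes past no threshold and those at the level threshold. Members that averaged under 10 counts over all 8 libraries are named too, as are the 4 largest changes each way in the related list. Others are named to account for the members, after their values were seen. Members and lists were chosen with earlier results of these data known. Some members and related genes are not reported here singly or drawn, but stay in the counts and sums.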

Additional observations from a re-analysis of the deposited data

Results flagged for a closer look

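Within each group of 4 libraries, a gene was picked out where the gap between its highest or lowest library and the next, divided by the range of the group, was above Dixon's 95% critical value for 4 values. Over 108 groups of values this happened 12 times, where chance, at about 1 in 20, gives about 5.4, and no cause was tested.

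In control replicate 1, CACNA2D4 was high (1.65 CPM against 1.09 to 1.16, ratio 0.868), as were SCN11A (0.641 against 0.409 to 0.431 CPM, ratio 0.904) and TRPV1 (10.2 against 9.31 to 9.44 CPM, ratio 0.843), and KCNMA1 was low (2.11 against 2.59 to 2.66 CPM, ratio 0.867). In control replicate 2, CACNA1D was high (48.4 against 45.5 to 46.0 CPM, ratio 0.831). In control replicate 3, TRPM7 was low (79.6 against 100.5 to 102.4 CPM, ratio 0.918) and CACNA2D3 was low (4 counts against 9 to 10, ratio 0.907). CACNB3 was high there (53.2 against 48.9 to 49.5 CPM, ratio 0.857), though its count of 1121 lay within the 1068 to 1149 of the others.

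In knockdown, KCNJ15 was low in replicate 1 (0.850 against 1.06 to 1.07 CPM, ratio 0.976) and KCNC4 was high in replicate 2 (27.6 against 23.9 to 24.5 CPM, ratio 0.840). In knockdown replicate 3, CACNB4 (0.866 against 0.680 to 0.696 CPM, ratio 0.912) and KCNS3 (1.68 against 1.47 to 1.49 CPM, ratio 0.937) were high. Before scaling neither stood out, with 17 counts against 15 to 17 for CACNB4 and 33 against 32 to 36 for KCNS3. TRPM7 is the gene of these whose call changed without the library concerned.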

How the results depend on the processing

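Over 15 alternatives, 49 of the 59 tested channel genes kept their direction and their side of the threshold. Of the 47 called genes, only KCNK5 and KCNK6 lost the call in any alternative, and none changed sign. With a mean of at least 50 counts required, fewer genes were tested: 18 were higher and 13 at least 2-fold higher, against 28 and 23. With the replicate block, 27 were higher and 18 lower, as KCNK5 (adjusted p = 0.0519) and KCNK6 (0.0621) lost the call. Same-numbered libraries had correlations of their deviations between -0.0307 and 0.0563, so no shared deviation was seen. Whether the replicate numbers pair the libraries is not given in the labels. No other alternative moved a count of higher or lower genes by over 1.5 times. Signs changed only in genes past no threshold; among them, leaving out 1 library gave log2 fold changes from -0.21 to 0.25 for CACNG5, -0.14 to 0.23 for KCNN1, -0.0202 to 0.27 for SCN9A and -0.12 to 0.27 for TRPM3. Other scalings moved the median of all tested genes by at most 0.084. At 3 or fewer counts per library, fold sizes are limited by depth.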
